A study of Rhamphochromis sp. 'chilingali' and Astatotilapia calliptera with 50 samples.

Results

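Rhamphochromis sp. 'chilingali' (RC) is a Lake Malawi cichlid, and the step of its somitogenesis described here runs from 15 to 20 somites. It was covered by 9 of the 50 embryos of the series, chosen by their stage labels alone: 3 embryos at somite stage 20 (20ss), 3 at 18ss and 3 at 15ss. Each library held the polyadenylated RNA of 1 wild-type whole embryo, sequenced with strand information. By the methods of the paper, eggs came from breeding stocks and were reared individually in well plates, in water with methylene blue. The second species of the series, Astatotilapia calliptera of the Mbaka population (AC), gave 3 embryos at 20ss and 3 at 15ss, from the same kind of library, for a comparison of the same step. Each species was represented by a single egg clutch, so species and clutch cannot be told apart. The tests below measure only the spread between siblings of the same stage. Unless stated otherwise, this spread was pooled over both clutches and the stages from 4ss to 30ss. It is therefore not the spread of the RC embryos at the compared stages alone. The AC genome served as the reference for mapping RC reads too.

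Somites are blocks of mesoderm that bud in pairs from the presomitic mesoderm, under the control of an oscillating network of her genes and opposing gradients of Fgf and retinoic acid. Somites already formed mature into axial muscle, skeleton and dermis. Over the same period neural crest cells, an embryonic population specified by factors such as foxd3 and sox10, leave the dorsal neural tube and migrate along defined streams to form pigment cells, peripheral neurons and glia and much of the craniofacial skeleton. Bulk RNA of a whole embryo sums all of these tissues, so a lower value can stand for fewer cells of a type or for less RNA per cell, which cannot be told apart here.

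Values are normalized counts, that is, reads on a gene divided by one size factor per embryo. In the 9 embryos between 19654322 and 24235124 reads lay on genes, and 3 reads, the limit used where none was counted, correspond to 2.73 to 3.35 normalized counts per embryo. This limit covers counting error only. Of 28001 genes, 21123 passed a filter that asked for 10 or more normalized counts in 2 or more embryos. A gene was called when its adjusted p in limma was under 0.05 and its change exceeded 1.5-fold, 0.585 on the log2 scale. Fold changes are on the log2 scale of normalized count plus 1, which understates the change of genes with low counts. Symbols came from the tables of the study and were at hand for 234 of the tested genes, so most genes are known here by their identifier only.

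Of the 9 embryos, 2 stood apart from the others, 1 at 15ss and 1 at 18ss. On the first principal component of the 9 embryos, which held 33.9% of the variance, RC 15ss replicate 3 lay at -125 and the other 8 between -14.5 and 47.7. On the second component, with 19% of the variance, RC 18ss replicate 1 lay at 93.6 and the others between -36.9 and 12. The median Spearman correlation with the other 8 embryos, across genes, was 0.9652 for RC 15ss replicate 3, 0.9725 for RC 18ss replicate 1 and between 0.9785 and 0.9816 for the others. RC 15ss replicate 3 had 21687754 reads on genes. RC 18ss replicate 1 had 19654322, the lowest of the 9 embryos, next to 19774561 in RC 20ss replicate 2. They also had the lowest numbers of genes with a read, 21454 and 21762, against 21929 to 22514 in the others.

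Among all 26 RC embryos of the series, from 4ss to 37ss, the first principal component ordered the embryos largely by stage and held 52% of the variance. RC 15ss replicates 1 and 2 lay at -49.7 and -53.8 on it, whereas replicate 3 lay at -111, within the range of the 10ss embryos, which were at -87.4, -145.5 and -100.3. Of the 18ss embryos, replicate 1 lay at -67.5, below both of these 15ss embryos, and replicates 2 and 3 lay at -17.4 and -16.7. The 20ss embryos lay at -9.87, -31.0 and -3.27, all below the 22ss embryos at 28.6, 38.8 and 48.2. The labelled stages were kept throughout, and why the 2 embryos stood apart was not tested.

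**Figure D1:**
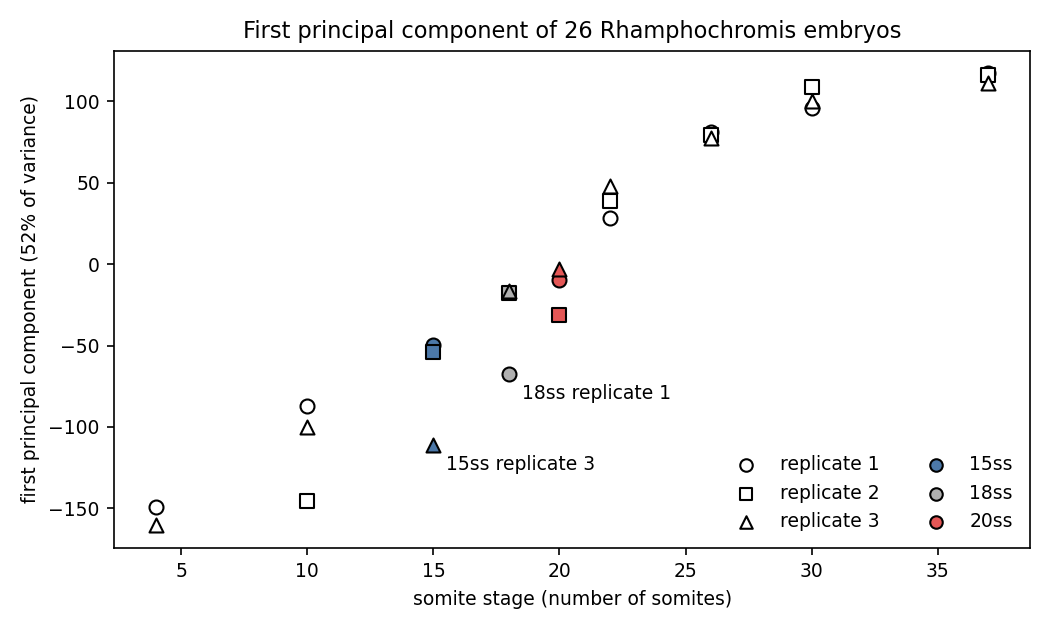
Position of each of the 26 RC embryos on the first principal component (arbitrary units, vertical axis) against the labelled somite stage (horizontal axis), with each point 1 embryo. RC 15ss replicate 3 lies at -111 among the 10ss embryos, and RC 18ss replicate 1 at -67.5 lies below the other 2 embryos of its stage.

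Between 15ss and 20ss, more genes rose than fell. At 20ss against 15ss, 172 of 21123 genes (0.814%) were called, of which 143 (0.677%) were higher and 29 (0.137%) lower at 20ss. The median log2 fold change was 1.99 among the rises and -2.34 among the falls, with extremes of 6.80 and -5.25. Across all tested genes the median was 0.03, with quartiles of -0.14 and 0.36, and 2919 genes (13.8%) had an unadjusted p under 0.05. The share of higher genes among the calls was 83.1% here, 61.9% of 147 calls after quantile normalization and 67.1% of 234 calls in DESeq2 fitted to the 9 embryos alone. Fitted to the same 9 embryos, limma called 0 genes, and edgeR called 1 higher and 2 lower. The 3 embryos at 20ss did not overlap the 3 at 15ss for 138 of the 143 rises and for 28 of the 29 falls. Over all genes, 12.6% did not overlap with higher values at 20ss and 10.2% with lower values. Among the rises, 47 of 143 averaged under 10 normalized counts at 15ss and 10 or more at 20ss, and 61 averaged at least 100 at 20ss. The share of all tested genes with such values was not counted. Of the 29 falls, 14 averaged under 10 at 20ss and 10 or more at 15ss, and 13 averaged at least 100 at 15ss.

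The number of calls rested on single embryos. Without RC 15ss replicate 3, 13 genes (0.0615%) were called at 20ss against 15ss, 11 higher and 2 lower, of which 10 and 1 were among the 172. This embryo was the most extreme of the 6 in 101 of the 143 rises and in 20 of the 29 falls. All 172 kept their direction without it, and 139 rises and 28 falls stayed over 1.5-fold. For the 138 rises and 28 falls whose stages did not overlap, leaving out an embryo cannot reverse the direction. The kept direction is therefore no separate evidence for them. Leaving out RC 20ss replicate 1 left 29 calls and RC 20ss replicate 3 left 43, against 149 without RC 20ss replicate 2. Leaving out RC 15ss replicate 1 gave 335 calls, and without replicate 2 of that stage there were 222. RC 18ss replicate 1 entered this comparison through the shared estimate of the spread, and without it there were 298 calls. With both embryos that stood apart left out, 52 genes were called, 46 higher and 6 lower.

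**Figure D2:**
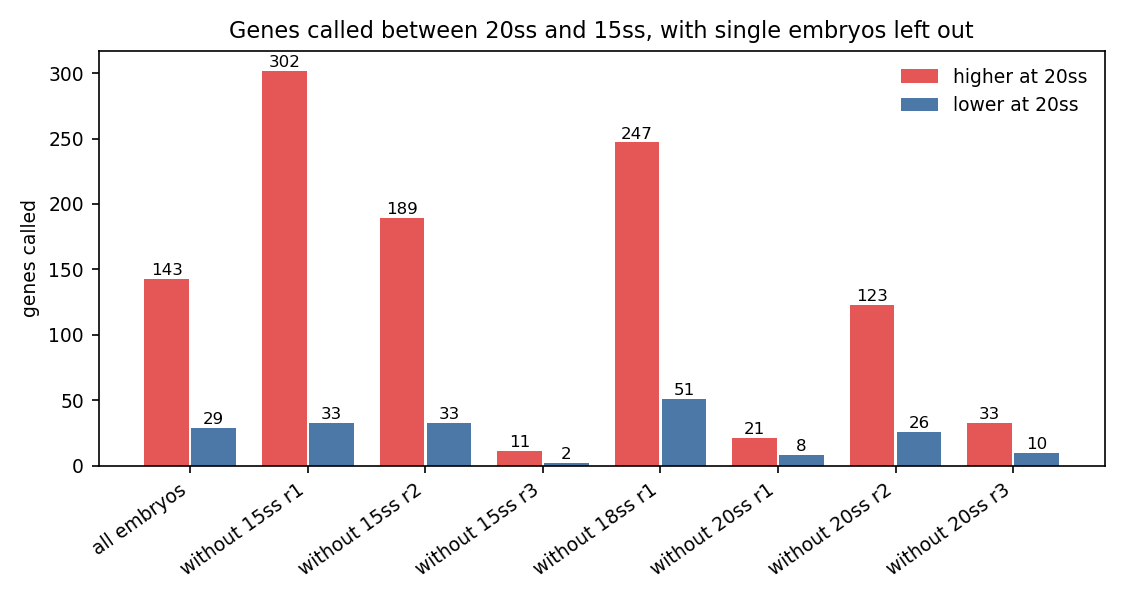
Number of genes called between RC 20ss and RC 15ss (vertical axis, bars from 0), higher and lower at 20ss, with all embryos and with single embryos left out (r, replicate). The count of both directions was 172 with all embryos, 13 without RC 15ss replicate 3 and 335 without RC 15ss replicate 1.

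Of the called genes, 3 with a symbol were among the rises and none among the falls. All 3 belong to the craniofacial list of the study, which its authors drew from these embryos for differing between the species, so that the list is not independent evidence of a direction. nr2f2, which encodes an orphan nuclear receptor known for its part in venous identity and in responses to retinoic acid, had 921, 824 and 962 normalized counts at 20ss, against 494, 536 and 322 at 15ss. It averaged 902 ± 71.0 at 20ss and 451 ± 113 at 15ss (SD, n = 3 each), with no overlap. The log2 fold change was 1.03 (SE 0.18, limma, adjusted p = 0.00321), and without RC 15ss replicate 3 it was 0.81 (adjusted p = 0.0835). The 18ss embryos held 464, 644 and 736, with replicate 1 at the level of 15ss. In AC, nr2f2 also rose, with a log2 fold change of 0.91 (adjusted p = 0.00229).

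tnfaip3 encodes a ubiquitin-editing enzyme that restrains NF-kB signalling. It had 352, 214 and 359 normalized counts at 20ss, against 161, 140 and 95.0 at 15ss, with no overlap. Its log2 fold change was 1.22 (SE 0.21, limma, adjusted p = 0.00165) and without RC 15ss replicate 3 it was 1.0 (adjusted p = 0.0535). The 18ss values of 195, 187 and 147 lay below all 20ss values. In AC the log2 fold change of tnfaip3 was -0.01 (adjusted p = 0.99), while the difference between the species, 1.22, did not pass the threshold (adjusted p = 0.0725).

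mustn1b, a small nuclear protein expressed in developing muscle and skeleton, had the largest change of the 3. It had 307, 307 and 553 normalized counts at 20ss, against 82.8, 103 and 15.7 at 15ss. Its log2 fold change was 2.84 (SE 0.53, limma, adjusted p = 0.00523), and 2.01 without RC 15ss replicate 3 (adjusted p = 0.149). The 18ss embryos split, with 71.4 in replicate 1 and 317 and 217 in the others. The change in AC was 1.59 (adjusted p = 0.0597).

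Further genes, without a symbol, show the range of values behind the calls and were chosen after their values were seen. ENSACLG00000013673 had 804, 646 and 1030 normalized counts at 20ss, against 17.2, 9.52 and 1.04 at 15ss, a log2 fold change of 6.80 (SE 1.52, limma, adjusted p = 0.0219), and 1150, 16.5 and 1310 at 18ss. ENSACLG00000018737 had 7610, 3710 and 7840 at 20ss, against 785, 612 and 21.9 at 15ss (log2 fold change 4.76, SE 1.02, adjusted p = 0.0166). Its 18ss values were 102, 6270 and 4930, so that 1 of the 18ss embryos sat within the range of 15ss and the other 2 within that of 20ss. ENSACLG00000021303 fell to 9.41, 6.61 and 15.7 at 20ss, against 109, 110 and 121 at 15ss, a log2 fold change of -3.38 (SE 0.80, adjusted p = 0.0305). Its 18ss values were already low, at 7.81, 12.6 and 12.7. ENSACLG00000022891 fell to 32.4, 36.4 and 71.5 at 20ss, against 222, 215 and 172 at 15ss, with 36.8, 99.2 and 38.2 at 18ss and a log2 fold change of -2.18 (SE 0.55, adjusted p = 0.0427). Without RC 15ss replicate 3 the log2 fold changes of these genes were 5.88, 3.12, -3.33 and -2.29, in the same order, and none was called, with adjusted p of 0.225, 0.288, 0.186 and 0.186.

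**Figure D3:**
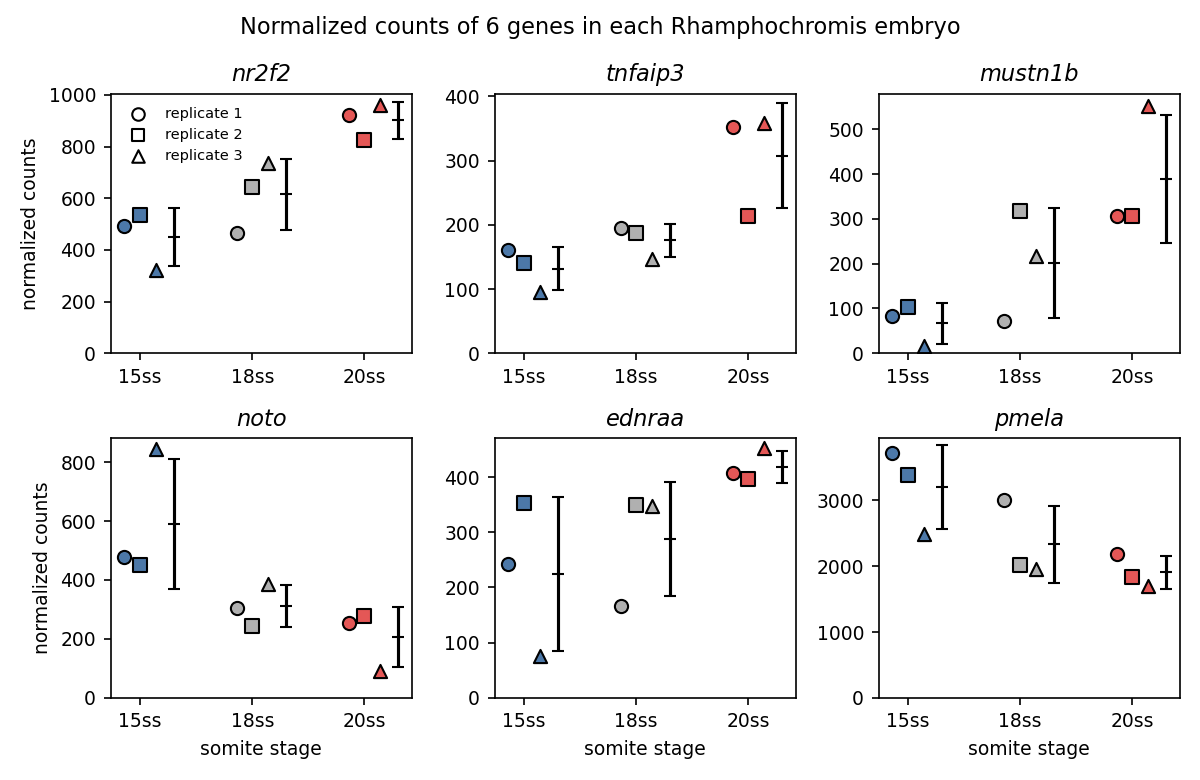
Normalized counts (vertical axis, from 0) at 15ss, 18ss and 20ss (horizontal axis) for 6 genes, with each point 1 RC embryo, its shape the replicate number, and bars the mean ± SD of a stage. For mustn1b the 18ss embryos split into 71.4, near the values of 15ss, and 217 and 317.

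By their labels the 18ss embryos lie between the stages compared. Each gene was placed on a scale on which its mean log2 value at 15ss is 0 and that at 20ss is 1. Over the 143 rises the median position was 0.153, 0.809 and 0.754 in RC 18ss replicates 1, 2 and 3. Replicates 2 and 3 were nearer to 20ss than to 15ss in 109 genes each, and replicate 1 in 33. The mean of the 18ss embryos lay between the means of 15ss and 20ss in 135 of the 143 rises. Among the 15ss embryos the median positions were 0.194, 0.166 and -0.342, so RC 15ss replicate 3 lay on the far side from 20ss. RC 18ss replicate 1, at 0.153, lay below RC 15ss replicates 1 and 2. Outside these 9 embryos the positions were -0.0996, -0.378 and -0.157 at 10ss and 1.19, 1.22 and 1.25 at 22ss, and they reached 1.59 to 1.66 at 37ss. In the median, the genes that rose had higher values after 20ss still.

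The 29 falls were placed on the same scale. Their median positions at 18ss were -0.00785, 0.248 and 0.275, and 6, 9 and 8 of the 29 genes were nearer to the 20ss mean in the 3 embryos. At 22ss the medians were 0.793, 0.564 and 0.879, and at 30ss 0.517, 0.799 and 0.874. At 26ss they were 0.978, 0.673 and 0.665, and at 37ss 0.28, 0.849 and 0.998. All of these were below 1, the mean of 20ss. However, 0.978 at 26ss and 0.998 at 37ss lay within the range of the 20ss embryos, 0.968 to 1.05. The mean of the 18ss embryos lay between the other 2 means in 21 of the 29 genes. Genes were taken from the comparison of 20ss with 15ss, so the positions of those 6 embryos are fixed in part by that choice. Falls chosen for low values at 20ss tend to lie short of 1 at other stages through the choice alone. Genes with widely spaced 15ss and 20ss means also leave more room for an 18ss mean between them. None of the positions was tested.

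**Figure D4:**
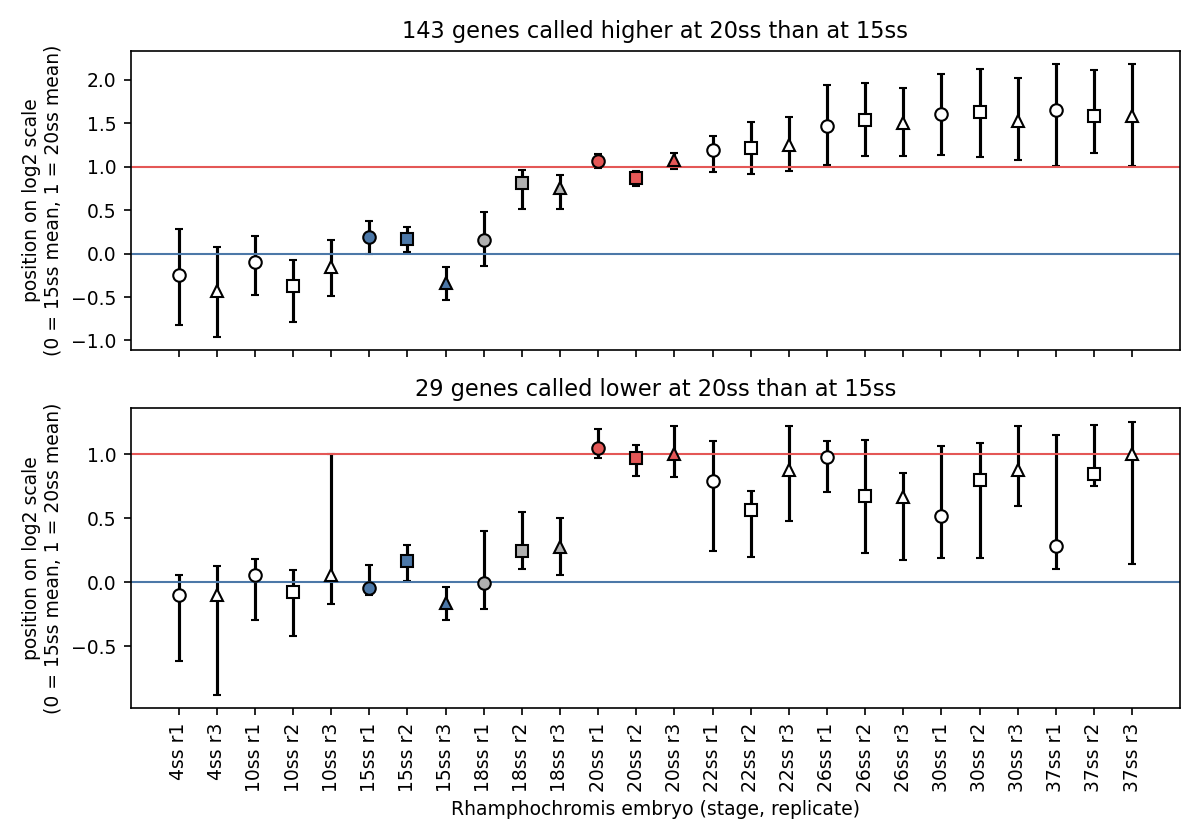
Median position of the 143 rises and the 29 falls in each RC embryo (vertical axis, 0 is the mean of 15ss and 1 the mean of 20ss) for the embryos in order of stage (horizontal axis), with bars from the lower to the upper quartile of the genes. The rises lie at 0.153, 0.809 and 0.754 in the 18ss embryos and between 1.19 and 1.25 at 22ss, whereas the falls at 22ss lie between 0.564 and 0.879.

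An RC comparison that shares no embryo with these 9 is that of 22ss with 10ss, in which 3956 genes (18.7%) were higher and 674 (3.19%) lower. Of the 143 rises, 128 (89.5%) were called higher there, which is 3.24% of that list, and none was called lower. Of the 29 falls, 10 (34.5%) were called lower there, 1.48% of that list, and none was called higher. In AC at 20ss against 15ss, 806 genes (3.82%) were called higher and 190 (0.899%) lower. Of the RC rises, 61 (42.7%) were called higher in AC, 7.57% of the AC list, and 1 was called lower. Of the RC falls, 1 (3.45%) was called lower in AC, 0.526% of the AC list, and none was called higher. In all, 130 of the rises (90.9%) had a positive change in AC, against 53.6% of all tested genes, and 18 of the falls (62.1%) had a negative one, against 45.9%. All of these calls came from one fit with a shared estimate of the spread of each gene. A gene with a small shared spread is thus more readily called in each comparison, and the lists are not independent. Both overlaps were chosen after the values were seen and carry no test.

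A list named presomitic mesoderm and segmentation clock had lower values at 20ss without a call. No her gene had a symbol here, so the list holds none and the oscillating network itself was not covered. The list also includes genes of the somite and of the notochord, so it is no measure of the presomitic mesoderm alone. It had 6 tested members, all with a negative log2 fold change and a median of -0.58, or -0.5 without RC 15ss replicate 3. Of these members, 3 had an unadjusted p under 0.05. Across all genes the median was 0.03, and in AC the same 6 genes had a median of -0.16. aldh1a2, the enzyme that makes retinoic acid in the somites, had 1800, 2010 and 1780 normalized counts at 20ss, against 2610, 2370 and 3060 at 15ss (log2 fold change -0.52, SE 0.25, limma, adjusted p = 0.345). The groups did not overlap, and at 18ss aldh1a2 was already at 1990, 1760 and 1820. foxc1a, a forkhead factor needed for somite formation in zebrafish, had 874, 883 and 589 at 20ss, against 1260, 1120 and 1250 at 15ss (-0.65, SE 0.24, adjusted p = 0.213). For meox1, a homeobox factor of the somite, the change was -0.48 (adjusted p = 0.418).

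The list also holds 2 Fgf ligands and a factor of the notochord. fgf8a, an Fgf ligand, had 329, 429 and 228 normalized counts at 20ss, against 484, 465 and 667 at 15ss (log2 fold change -0.74, SE 0.37, limma, adjusted p = 0.371). The paper located fgf8a transcripts of these species in the developing brain as well as at the posterior end. Its value in a whole embryo is therefore no measure of segmentation alone. noto, a homeobox factor of the forming notochord, had 255, 279 and 91.1 at 20ss, against 478, 450 and 844 at 15ss (-1.60, SE 0.42, adjusted p = 0.0559), and 306, 243 and 385 at 18ss. Without RC 15ss replicate 3 its change was -1.31. fgf3, a second Fgf ligand, had 165, 156 and 172 at 20ss, against 181, 151 and 229 at 15ss, and these overlapped. Of the members of 2 printed Gene Ontology (GO) lists, somitogenesis had 19 tested genes with a median of -0.33, 5 of them positive. Segmentation had 29 with a median of -0.23, 9 of them positive, and neither list held a call. Without RC 15ss replicate 3 the medians were -0.21 and -0.2, and in AC they were 0.091 and -0.034.

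Lists of the contractile apparatus of muscle had positive medians, while a short list named myogenic regulators did not. Its 3 tested members were myf5, pax3a and prdm1a, of which 1 had a positive change and none was called. Both pax3a and prdm1a are also factors of the neural plate border and are given with the neural crest below. Their median was -0.24, or -0.081 without RC 15ss replicate 3. So few genes, not all of them particular to muscle, do not show how myogenic regulators changed as a class. myf5, the member with the most negative change, had 1360, 1600 and 973 normalized counts at 20ss, against 2340, 1630 and 2230 at 15ss, without overlap (log2 fold change -0.67, SE 0.29, limma, adjusted p = 0.295). The GO list sarcomere organization had 14 tested genes, 13 of them with a positive change, and a median of 0.92, which was 0.61 without RC 15ss replicate 3. No member was called. Myofibril assembly had 21 genes with a median of 0.59, or 0.39 without that embryo, again with no call. In striated muscle cell differentiation and in skeletal muscle tissue development 2 of 21 genes each were called higher, against 0.677% of all genes, and none without RC 15ss replicate 3. Their medians were 0.46 and 0.28 with all embryos, and 0.14 and 0.13 without that embryo. chrna1, the alpha subunit of the muscle acetylcholine receptor, had 423, 338 and 447 normalized counts at 20ss, against 285, 229 and 160 at 15ss, without overlap but with an adjusted p of 0.111 in limma (log2 fold change 0.87, SE 0.27). In AC the medians of sarcomere organization and myofibril assembly were 0.82 and 0.62.

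Further GO lists had higher medians than all genes. They were picked for it, and other neuronal and metabolic lists had lower medians, such as hindbrain development at -0.088 and purine nucleotide biosynthetic process at -0.0074. Neuron differentiation had a median of 0.33 over 21 genes with no call, and neurotransmitter transport a median of 0.52 over 13 genes with 1 call, and without RC 15ss replicate 3 the median was 0.094 with no call. myt1a, a zinc finger factor of neuronal differentiation, had 96.1, 94.7 and 101 normalized counts at 20ss, against 60.6, 33.8 and 27.1 at 15ss (log2 fold change 1.32, SE 0.35, limma, adjusted p = 0.0585). Nucleosome assembly, a list of histone and histone chaperone functions, had a median of 0.66 over 16 genes and 1 call, which also stood without RC 15ss replicate 3, where the median was 0.44. In this list the 18ss embryos were not higher than those of 15ss (median -0.22). Glycolytic process had a median of 0.30 over 21 genes and 1 call, which was lost without RC 15ss replicate 3. Of all genes, 0.814% were called, and a single call in lists this short is no result about them.

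These 10 GO lists were chosen after their values were seen from 39 that were at hand, with medians from -0.33 to 0.92, and 8 of the 39 held at least 1 call. The study printed only part of each list and took its members from genes that differed between the species in these embryos, so the lists are not independent of the data, and their counts carry no test.

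**Figure D5:**
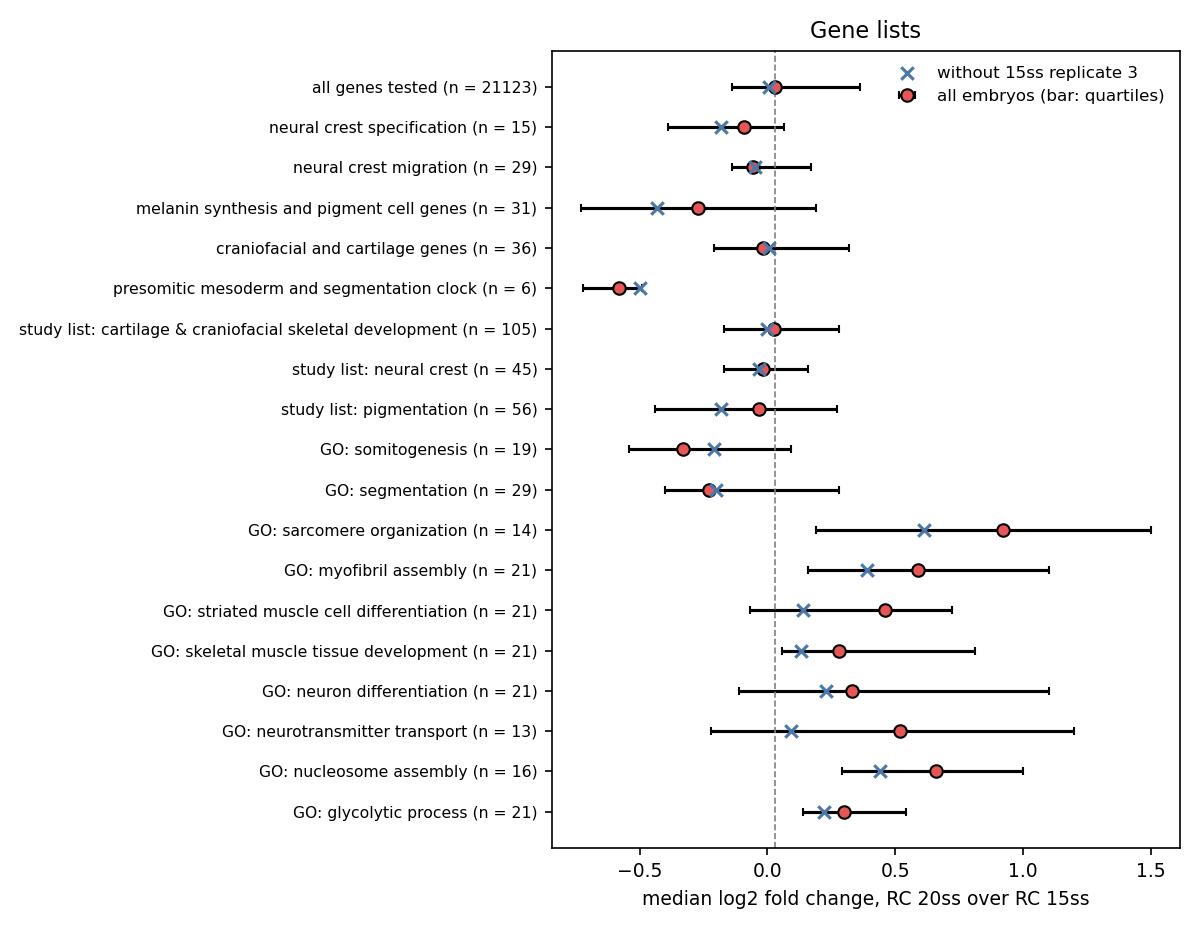
Median log2 fold change at 20ss against 15ss in RC (horizontal axis) for 18 gene lists (vertical axis), with all embryos (circles, bars to the quartiles of the genes) and without RC 15ss replicate 3 (crosses), beside all genes tested, whose median is the dashed line. Sarcomere organization has the highest median at 0.92, or 0.61 without that embryo. The list named presomitic mesoderm and segmentation clock has the lowest at -0.58. It holds no her gene and is no measure of the presomitic mesoderm alone.

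No neural crest gene on the lists used was called between 20ss and 15ss. The 15 specification genes had a median log2 fold change of -0.09 and the 29 migration genes one of -0.06, against 0.03 for all genes, and in AC their medians were -0.09 and 0.26. foxd3, which marks premigratory crest, had 607, 619 and 648 normalized counts at 20ss, against 579, 542 and 688 at 15ss (log2 fold change 0.06, SE 0.36, limma, adjusted p = 0.971). The gene given as sox10 in the tables, with the identifier ENSACLG00000016156, is a SoxE factor of migrating crest, glia and pigment cells, and the tables do not say which of the 2 teleost copies it is. It had 826, 891 and 869 at 20ss, against 957, 998 and 1150 at 15ss, without overlap but with a log2 fold change of -0.26 (SE 0.27, adjusted p = 0.71). pax3a, a factor of the neural plate border and of the dermomyotome, had 956, 1100 and 1100 at 20ss, against 1090, 1130 and 1540 at 15ss (-0.24, SE 0.23). prdm1a, a zinc finger factor of the neural plate border, had 864, 762 and 895 at 20ss, against 883, 660 and 576 at 15ss (0.27, SE 0.20, adjusted p = 0.58). erbb3b, the neuregulin receptor that guides glial precursors, had 631, 695 and 506 at 20ss, against 658, 795 and 772 at 15ss (-0.29, SE 0.34). aldh1l1 ran the other way, with 1210, 944 and 1570 at 20ss, against 1030, 743 and 314 at 15ss (0.97, SE 0.42, limma, adjusted p = 0.294). Without RC 15ss replicate 3 the change of aldh1l1 was 0.48, and that of sema3fa was 0.29. Of the 29 migration genes, 13 had a positive change, and 4 were higher and 0 lower at an unadjusted p under 0.05 (limma). A fall of 1.5-fold lay within 2 SE of the estimates of foxd3, sox10 and erbb3b, so a missed threshold does not show a constant level.

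The 36 genes of the craniofacial and cartilage list had a median of -0.02, with no call, and the study's own lists had 3 calls of 105 craniofacial genes, 0 of 45 neural crest genes and 0 of 56 pigmentation genes, with medians of 0.03, -0.02 and -0.03. Of all genes, 0.814% were called. None of the 3 was called without RC 15ss replicate 3, and there the median of the pigmentation list was -0.18. For dlx1a, ednraa, ednrab and tnc, RC 15ss replicate 3 was the lowest of the 9 embryos. dlx1a, a homeobox factor of the pharyngeal arches and forebrain, had 149, 100 and 129 normalized counts at 20ss, against 48.5, 49.7 and 10.4 at 15ss, and was highest at 18ss with 237, 249 and 195. The log2 fold change of dlx1a at 20ss against 15ss was 2.04 (SE 0.83, limma, adjusted p = 0.262), and 1.33 without that embryo. ednraa, an endothelin receptor of arch crest, had 407, 397 and 452 at 20ss, against 242, 354 and 75.1 at 15ss, a change of 1.16 (SE 0.35, adjusted p = 0.0973) that was 0.51 without that embryo. Its paralog ednrab had 917, 588 and 585 at 20ss, against 487, 302 and 68.9 at 15ss (1.65, SE 0.67, adjusted p = 0.256), and its change was 0.83 without RC 15ss replicate 3. tnc, an extracellular matrix glycoprotein, had 3370, 2880 and 3490 at 20ss, against 2180, 1730 and 1010 at 15ss (1.05, SE 0.35, adjusted p = 0.149; 0.73 without that embryo). irx7 ran the other way, with 645, 885 and 789 at 20ss, against 1170, 1130 and 1920 at 15ss (-0.83, SE 0.24, adjusted p = 0.0881; -0.59 without RC 15ss replicate 3). sox9b, a further SoxE factor, had 1100, 972 and 998 at 20ss, against 1170, 1190 and 1800 at 15ss (-0.41, SE 0.25, adjusted p = 0.472, and -0.21 without RC 15ss replicate 3).

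No pigment cell gene was called. Of 31 genes, 12 had a positive change, and the median was -0.27, and -0.43 without RC 15ss replicate 3, while in AC the median of the same genes was -0.52. pmela, a structural protein of melanosomes, had 2190, 1830 and 1700 normalized counts at 20ss, against 3720, 3380 and 2490 at 15ss (log2 fold change -0.73, SE 0.27, limma, adjusted p = 0.21), and 3010, 2020 and 1950 at 18ss. tyr, the first enzyme of melanin synthesis, had 236, 225 and 171 at 20ss, against 400, 315 and 391 at 15ss (-0.81, SE 0.39, adjusted p = 0.349), with 514 in RC 18ss replicate 1. tyrp1a, a further enzyme of that pathway, had 1260, 1080 and 908 at 20ss, against 1810, 1990 and 2040 at 15ss (-0.85, SE 0.49, adjusted p = 0.437). For slc24a5, an ion exchanger of melanosomes, the change was -0.44 (adjusted p = 0.567), and for dct, which acts beside tyrp1a, it was -0.40 (adjusted p = 0.762). The widest spread was in gch2, an enzyme of pteridine synthesis in xanthophores, with 638, 531 and 1860 at 15ss, 4280, 1330 and 1670 at 18ss, and 153, 241 and 157 at 20ss (-2.25 at 20ss against 15ss, SE 1.12, adjusted p = 0.369). mitfa, the melanophore master regulator, was low throughout, with 27.2, 12.1 and 29.4 at 20ss, against 26.3, 22.2 and 5.22 at 15ss. tyrp1b, the paralog of tyrp1a, had 267, 98 and 162 at 20ss, against 293, 221 and 20.9 at 15ss, a change of 0.53 (SE 0.73, adjusted p = 0.797) that was -0.65 without RC 15ss replicate 3. The 20ss and 15ss embryos did not overlap for pmela, tyr, tyrp1a and gch2 and overlapped for tyrp1b and mitfa, and none of the changes met the threshold. The tyr given here is ENSACLG00000023639, and values of a second entry, TYR (ENSACLG00000000404), are not given.

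Between 18ss and 15ss a single gene was called (0.00473% of those tested), although 3166 genes (15%) had an unadjusted p under 0.05. This gene had 0, 0 and 0.91 normalized counts at 18ss, against 14.1, 12.7 and 11.5 at 15ss (log2 fold change -3.47, SE 0.58, limma, adjusted p = 0.0189), and 1.05, 0 and 2.94 at 20ss. It has no symbol. Without RC 15ss replicate 3 no gene was called. There were 32 calls without RC 18ss replicate 1, 2 without replicate 3 of that stage, and 11 and 7 without RC 15ss replicates 1 and 2. DESeq2 on the recovered reads called 118, 104 higher and 14 lower, so the count depended on the tool.

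Between 20ss and 18ss, 25 genes (0.118%) were called, 8 (0.0379%) higher and 17 (0.0805%) lower at 20ss, and 1653 (7.83%) had an unadjusted p under 0.05. Only gpc4 among them has a symbol. gpc4 encodes a glypican, a cell surface heparan sulfate proteoglycan that acts in Wnt signalling and in convergent extension of the zebrafish embryo. It had 2150, 2030 and 2340 normalized counts at 20ss, against 3940, 4060 and 3230 at 18ss (log2 fold change -0.78, SE 0.16, limma, adjusted p = 0.0299). The 15ss embryos had 2310, 2120 and 1980, so that its level was high at 18ss alone among the 3 stages, although the change at 18ss against 15ss, 0.81, was not called (adjusted p = 0.0686). gpc4 was not called without RC 18ss replicate 1 (log2 fold change -0.74, adjusted p = 0.167), and 7 genes in all were then called between 20ss and 18ss. Leaving out RC 20ss replicate 1 gave 13 calls and RC 20ss replicate 3 gave 7.

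The change at 20ss against 15ss differed between RC and AC for 33 genes (0.156%), 19 with a more positive change in RC and 14 with a more negative one, and 2303 (10.9%) had an unadjusted p under 0.05. In 29 of the 33 the estimated changes of RC and AC had opposite signs, which a choice by their difference favours by itself. Of the 33, 7 were called at 20ss against 15ss in RC and 19 in AC. Only gfpt1 had a symbol and passed the limits for naming. It encodes the entry enzyme of the hexosamine pathway and stands on the pigment list. In RC it had 6120, 6020 and 6310 normalized counts at 20ss, against 6560, 5870 and 4660 at 15ss. In AC it had 5370, 6180 and 5500 at 20ss, against 9400, 8430 and 9350 at 15ss. The log2 fold change was 0.12 in RC (SE 0.12, limma, adjusted p = 0.677) and -0.67 in AC (adjusted p = 0.000782), and the difference was 0.80 (SE 0.17, adjusted p = 0.0321). Without RC 15ss replicate 3 it was 0.66 (adjusted p = 0.128), and 14 genes in all were then called. Of the 12 embryos compared, leaving out AC 20ss replicate 2 gave 29 calls, AC 15ss replicate 3 gave 53, and each of the others gave 14 to 22.

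kcnk18 and tspan37 are further genes that the study followed beside fgf8a. kcnk18, a potassium channel, had 16.7, 14.3 and 10.8 normalized counts at 20ss, against 8.08, 4.23 and 1.04 at 15ss (log2 fold change 1.68, SE 0.51, limma, adjusted p = 0.104), which did not overlap but are low, and its change was 1.1 without RC 15ss replicate 3. tspan37, a membrane protein of the tetraspanin family, had 165, 71.6 and 120 at 20ss, against 133, 95.2 and 4.17 at 15ss, a change of 1.48 that was 0.00 without RC 15ss replicate 3.

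Long noncoding RNAs (lncRNAs) were few in reads, with 83125 to 116974 per embryo. Of 1087 tested, 12 (1.1%) were called at 20ss against 15ss, 8 (0.736%) higher and 4 (0.368%) lower, and 99 (9.11%) had an unadjusted p under 0.05. LOC113009128 passed the limits for naming. It fell to 69.5, 83.9 and 68.7 normalized counts at 20ss, against 146, 121 and 151 at 15ss, with 103, 82.7 and 167 at 18ss (log2 fold change -0.90, SE 0.21, limma, adjusted p = 0.0185). It was not called without RC 15ss replicate 3 (adjusted p = 0.128).

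The other 3 lncRNAs given here were chosen after their values were seen. LOC113026524 had no read in any of the 3 embryos at 15ss, but 29.1, 21.4 and 24.6 normalized counts at 18ss and 25.3, 19.9 and 17.7 at 20ss. Against the limit of 3 reads per library it was at least 6.73-fold higher at 20ss than at 15ss (limma, adjusted p = 0.00741), and it was also called without RC 15ss replicate 3 (adjusted p = 0.0102). LOC113016392 fell to 4.21, 5.52 and 3.93 at 20ss, against 27.2, 31.7 and 43.9 at 15ss (log2 fold change -2.65, SE 0.55, adjusted p = 0.0126), while its 18ss embryos spread over 38, 9.72 and 27.3. LOC113017315 fell to 28.4, 19.9 and 10.8 at 20ss, against 69.5, 45.5 and 80.5 at 15ss (-1.73, SE 0.39, adjusted p = 0.0148), with 24.6, 28.2 and 29.1 at 18ss. Without RC 15ss replicate 3, LOC113016392 was called (adjusted p = 0.044) and LOC113017315 was not (adjusted p = 0.128). The lncRNA calls numbered 8 at 18ss against 15ss, all higher (0.736%). At 20ss against 18ss limma called none (0%), with 70 (6.44%) at an unadjusted p under 0.05. Without RC 20ss replicate 1 the count at 20ss against 15ss was 5, without RC 20ss replicate 3 it was 2, and with both embryos that stood apart left out it was 7.

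Transposable elements (TEs) took 5.35, 5.40 and 4.72 reads per 100 reads on genes at 15ss, 5.73, 4.71 and 5.55 at 18ss, and 6.1, 6.0 and 5.44 at 20ss, so the 20ss embryos were all above those of 15ss. In limma none of 1503 TEs (0%) was called at 20ss against 15ss, with 203 (13.5%) at an unadjusted p under 0.05, 162 higher and 41 lower. DESeq2 on the recovered reads called 15 and edgeR 1, and limma called 4 without RC 15ss replicate 1 and 4 without replicate 2. Values of the 6 embryos did not overlap, with 20ss higher, for 232 TEs (15.4%), and with 20ss lower for 59 (3.93%). The median log2 fold change of 0.08 depended on the scaling, being -0.01 after quantile normalization and -0.02 in edgeR, so no direction is given for TEs as a whole. The DNA transposon family rnd-1_family-544 of the CMC-EnSpm type, which is one of 2 families chosen after their values were seen, had 633, 556 and 554 normalized counts at 20ss, against 450, 422 and 257 at 15ss (log2 fold change 0.66, SE 0.14, adjusted p = 0.059), and its change was 0.41 without RC 15ss replicate 3 (adjusted p = 0.363). The unclassified family rnd-1_family-144 had 10600, 7800 and 9960 at 20ss, against 5460, 5920 and 3610 at 15ss (0.94, adjusted p = 0.0757), and 0.72 without that embryo (adjusted p = 0.363).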

How the data were processed

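Single whole embryos of RC (26) and AC (24) had been sequenced from paired-end, stranded, poly(A)-enriched libraries. The authors used Trim Galore for trimming, STAR for mapping to the AC genome, and uniquely mapped reads only for the gene counts, which DESeq2 normalized by the median of ratios. For TEs, TEcount included multiply mapped reads. The deposited values carry the unit signal, that is, normalized counts as made by the authors. Dividing by the value of 1 read gave whole reads for 100% of values (tolerance 0.01). The 17 columns of stage means were not used.

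Values were analysed as log2(normalized count + 1) in limma 3.58.1 (R 4.3.3), with a variance trend, one model of 16 group means over 47 embryos from 4ss to 30ss (37ss left out), two-sided tests and Benjamini-Hochberg adjustment within each comparison and table. The 3 embryos per stage are siblings. Between 1087 and 21123 features were tested per table. Named genes were those with a symbol that were called, did not overlap between stages and averaged at least 100 normalized counts at the higher stage, plus members of the lists described; exceptions are stated. Groups, members and lists were chosen with earlier results of these data known. Alternatives were pseudocounts of 0.1 and 10, other filters, samples and thresholds, quantile normalization, a replicate block, count tests in edgeR 4.0.16 and DESeq2 1.42.0 on recovered reads, and omission of each embryo. The model was also run on simulated counts with 1 mean per gene for all embryos, apart from changes planted at RC 20ss. It called 76% of 2-fold and 95% of 4-fold changes planted in genes averaging at least 100, with 10 false calls. No simulated embryo was made to stand apart, so this says nothing of the 2 that did. Symbols came from the study's tables (236), and no genome or sequence table was used here.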

Additional observations from a re-analysis of the deposited data

Results flagged for a closer look

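The change of gfpt1 from 15ss to 20ss differed between the species, by 0.80 on the log2 scale (RC minus AC, SE 0.17, limma, adjusted p = 0.0321). Normalized counts were 6120, 6020 and 6310 in RC at 20ss and 6560, 5870 and 4660 in RC at 15ss, whereas AC had 5370, 6180 and 5500 at 20ss and 9400, 8430 and 9350 at 15ss. All 3 AC embryos of 20ss were below all 3 of 15ss, while the RC embryos of both stages overlapped. The difference was called in 13 of 27 alternatives, with values from 0.66 to 0.91 and adjusted p from 0.00144 to 0.128.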

How the results depend on the processing

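Counts of calls moved with the embryos and the fit, and the cause was not tested. At 20ss against 15ss, 172 genes became 267 with a pseudocount of 10, 0 in limma on the 9 embryos of the 3 stages alone (2899 at an unadjusted p under 0.05), 80 on the 26 RC embryos, 412 in DESeq2, 52 without both embryos that stood apart, 298 without RC 18ss replicate 1, 101 in DESeq2 on these 9 without RC 15ss replicate 3 and 3 in edgeR on these 9. Leaving out 1 embryo gave 13 to 335. Quantile normalization called 147 (61.9% higher, against 83.1%) and DESeq2 on these 9 called 234 (67.1% higher). The median of all genes moved from 0.03 to -0.05 with quantile normalization.

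At 18ss against 15ss the single call became 13 and 8 with pseudocounts of 0.1 and 10, 3 without a filter and with quantile normalization, 2 on the 26 RC embryos and in edgeR on the 9, 5 without both embryos, 118 in DESeq2, 372 in DESeq2 on the 9, 249 in DESeq2 on the 9 without RC 15ss replicate 3, and 0 in edgeR on 47 embryos and in limma on the 9; leave-outs gave 0 to 32. At 20ss against 18ss, 25 became 3 on the 26 RC embryos, 61 in DESeq2, 14 in edgeR, 8 without both embryos, 154 in DESeq2 on the 9, 261 in DESeq2 on the 9 without RC 15ss replicate 3, and 0 in limma and in edgeR on the 9; leave-outs gave 7 to 27. For the RC and AC difference, 33 became 18 above 2-fold, 107 in DESeq2, 15 in edgeR, 52 without RC 18ss replicate 1 and 312 in DESeq2 on the 12 embryos compared; leave-outs gave 14 to 53. The 12 lncRNA calls became 2 on the 9, 0 on the 26 RC embryos, and 7 both in edgeR and without both embryos; leave-outs gave 2 to 13. The 0 TE calls became 2 with a pseudocount of 10, 10 on the 9, 15 in DESeq2, and 1 both in edgeR and without RC 18ss replicate 1; leave-outs gave 0 to 4.

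A replicate block gave 150 genes at 20ss against 15ss, 146 of them among the 172, and 0, 21 and 34 genes in the other comparisons as ordered above; it also gave 9 lncRNAs and 0 TEs. Same-numbered embryos of different stages did not deviate together (correlations from -0.17 to 0.13), so they share only a number. nr2f2 was called in 20 of 23 alternatives (adjusted p from 4.97e-05 to 0.254), tnfaip3 in 20 (2.9e-06 to 0.254) and mustn1b in 17 (4.97e-05 to 0.278). gpc4 was called in 12 of 22 (3.67e-08 to 0.172). ENSACLG00000013673 was called in 16 of 23 (6.98e-05 to 0.255), ENSACLG00000018737 in 14 (0.000827 to 0.398), ENSACLG00000021303 in 14 (9.24e-13 to 0.186) and ENSACLG00000022891 in 9 (0.000599 to 0.246). Of the lncRNAs, LOC113009128 was called in 12 of 20 (0.00404 to 0.363), LOC113016392 in 17 (0.00103 to 0.242), LOC113017315 in 14 (0.00174 to 0.247) and LOC113026524 in 19 (0.000828 to 0.0739). None of the called features named here changed sign in the alternatives run for it. Where the compared stages did not overlap, leaving out an embryo could not change the sign. At 3 embryos per stage of one clutch, genes near the limit of 3 reads give folds that depend on the pseudocount.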
